A study of Mus musculus with 14 samples.

Results

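This report describes 6 genes of MHC class I antigen presentation, H2-D1, H2-K1, B2m, Tap1, Tap2 and Tapbp, in sorted mouse natural killer (NK) cells and in sorted tumour stroma. The genes were listed by name, with earlier results of these data known, and all 6 were found among the 10210 genes of the NK count table and among the 12235 genes of the stromal count table. All 6 passed the filter on low counts, which kept 8471 NK genes for testing. All mice were BALB/c and kept free of specific pathogens, per the labels, which name no genetic change in the hosts. The NK libraries fell into 3 groups, with 3 libraries from spleens of healthy mice, 4 from spleens of mice that carried a 4T1-GFP tumour, and 4 from those tumours. 4T1-GFP denotes a mouse mammary carcinoma line that carries green fluorescent protein, and 100000 of its cells were placed in the lower left mammary fat pad of females aged 8 weeks. The labels give 8 weeks as the age of mice in general, and neither the time from injection to harvest nor the sex of the healthy mice. A further group of 3 libraries came from sCAFs, a class of cancer-associated fibroblasts, of such tumours. NK cells were sorted as CD45+ NKp46+ cells without GFP, EPCAM, CD3, CD31 or CD14, and sCAFs as cells without EPCAM, GFP, CD45, CD31 or PDPN. Tumours were digested with collagenase A and DNase for 20 min at 37 °C, whereas spleens were crushed and treated on ice, so tissue and handling cannot be told apart in any tumour comparison. The labels call the replicates independent and do not say how many mice each holds.

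MHC class I molecules show peptides from inside a cell on its surface. A polymorphic heavy chain (H2-K or H2-D here) pairs with the invariant light chain beta-2 microglobulin, encoded by B2m. Peptides made by the proteasome are pumped into the endoplasmic reticulum by the Tap1-Tap2 transporter, and tapasin (Tapbp) holds the empty heavy chain at that transporter while it is loaded. Class I genes are classic targets of interferon and of NF-kappaB, and their level matters for NK cells because inhibitory Ly49 and NKG2A receptors read class I on other cells and on the NK cell itself. BALB/c mice carry the d haplotype of the MHC, whereas the mouse reference genome is of a C57BL/6 strain with the b haplotype. Whether reads from d alleles were lost or moved among class I genes was not tested.

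Of the 6 genes, 5 lie in the MHC on chromosome 17 and B2m lies on chromosome 2 (GENCODE M21, GRCm38, all protein-coding). H2-D1 spans chr17:35262730-35267499 on the plus strand and H2-K1 chr17:33996017-34000347 on the minus strand. Tapbp spans chr17:33915899-33929292, Tap1 chr17:34187553-34197225, Tap2 chr17:34203527-34216321 and B2m chr2:122147686-122153083, all on the plus strand. The 250 bases before the RefSeq start site of 4 members are shown. They were picked because both heavy chains and the light chain hold the same 4 short motifs there, and Tap1 is set beside them. RefSeq and GENCODE starts differ for some genes, and the H2-D1 window lies inside the locus given above. H2-K1 had 2 listed start sites, and the first was used. The sequences are RefSeq's for GRCm38.p6, 5′ to 3′ on the gene's own strand, and the capitals mark matches to an interferon regulatory factor core (AANNGAAA) or to a kappaB motif (GGG and CCC with 5 bases of any kind between them) on either strand.
H2-D1, chr17:35262844-35263093, plus strand: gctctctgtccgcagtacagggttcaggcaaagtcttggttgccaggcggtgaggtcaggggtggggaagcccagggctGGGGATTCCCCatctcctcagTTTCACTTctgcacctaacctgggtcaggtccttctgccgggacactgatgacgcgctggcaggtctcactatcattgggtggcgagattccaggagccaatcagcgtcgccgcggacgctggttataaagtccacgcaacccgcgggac
H2-K1, chr17:34000348-34000597, minus strand: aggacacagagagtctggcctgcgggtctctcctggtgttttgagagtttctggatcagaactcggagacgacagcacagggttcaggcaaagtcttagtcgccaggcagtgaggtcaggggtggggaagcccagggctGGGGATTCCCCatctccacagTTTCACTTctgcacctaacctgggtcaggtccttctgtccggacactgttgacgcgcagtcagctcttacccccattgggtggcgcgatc
B2m, chr2:122147437-122147686, plus strand: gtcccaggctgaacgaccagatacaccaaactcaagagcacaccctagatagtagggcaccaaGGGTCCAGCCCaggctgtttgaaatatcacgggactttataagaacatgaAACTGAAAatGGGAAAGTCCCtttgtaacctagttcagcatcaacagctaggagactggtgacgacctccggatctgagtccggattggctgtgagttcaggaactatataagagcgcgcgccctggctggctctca
Tap1, chr17:34187306-34187555, plus strand: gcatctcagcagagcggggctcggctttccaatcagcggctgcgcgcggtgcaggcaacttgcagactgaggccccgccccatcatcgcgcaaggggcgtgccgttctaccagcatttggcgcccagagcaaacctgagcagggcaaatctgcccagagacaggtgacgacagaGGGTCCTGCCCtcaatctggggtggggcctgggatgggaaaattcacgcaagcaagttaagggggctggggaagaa
H2-D1 and H2-K1 carried an identical kappaB match, GGGGATTCCCC, followed by TTTCACTT, the regulatory factor core read on the other strand. Both windows aligned with 89.5% identity over 190 bases. In B2m the order was turned round, with AACTGAAA before GGGAAAGTCCC, and a further kappaB match lay upstream of both. All 3 windows also held TGACG, the core of the X2 box. They held ATTGG as well, the CCAAT box read on the opposite strand. Tap1 held a kappaB match (GGGTCCTGCCC), TGACG and a CCAAT box, and no AANNGAAA match lay in this window. Tapbp held ATTGG alone of the 4 motifs in its RefSeq window, chr17:33919228-33919477, which lies inside its GENCODE locus. Over the 11 NK libraries Tapbp had a Pearson r of 0.856 with H2-K1 and 0.844 with H2-D1. For B2m these were 0.638 and 0.832, so genes with and without the motifs moved with the heavy chains. Whether the motifs go with the counts was not tested. Tap2 was not matched in the promoter table. Among 27025 genes with a promoter window of this length, 23.9% held AANNGAAA, 13.8% the kappaB motif, 19.8% TGACG and 37.5% ATTGG, with both strands searched. For these shares a gene was counted if any of its listed start sites had the match, whereas the members were read at the first site alone. The combination of all 4 was present in 38 genes (0.141%), and AANNGAAA with the kappaB motif in 468 genes (1.73%). A match describes letters, not a bound site. The 4 motifs do not overlap each other in these windows.

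Since reads came from the ends of transcripts, the near-identical heavy chains were also compared there. H2-K1 and H2-D1 reference transcripts were 90.5% identical over their aligned length and 70.7% identical over their last 500 bases. Of 451 windows of 50 bases in that stretch, H2-K1 shared 2 (0.443%) with another gene, namely H2-D1. H2-D1 shared 43 windows (9.53%), and H2-K1, with 2 of them, was the single H2 gene among the genes that share them. B2m, Tap1, Tap2 and Tapbp shared none, although the end of the B2m locus overlaps Patl2 and the sources used here do not say whether strand was used in counting. In the reference, then, few stretches of this length could merge counts of H2-K1 with those of H2-D1, and each is reported under its own symbol. Alleles of the d haplotype were not compared.

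Totals over listed genes ran from 559688 to 1966963 counts in the NK libraries and from 1318067 to 2230475 in the sCAF libraries. NK levels below are CPM, counts scaled to a common library size, here with TMM factors. The 7 spleen libraries split along their first principal component, which held 46.7% of their variance, into tumour-bearing replicates 1 and 2 with healthy replicate 1 (side A) and the other 4 (side B), a split the labels do not name. The sides were drawn from the same counts that the fits by side use. Calls and adjusted p-values of those fits below describe the libraries and are no independent test. All 10 NK marker genes were present in all 3 NK groups. Their summed level was 26770 to 31771 CPM on raw totals in the spleens and 19722 to 23126 CPM in the tumours. Gzma made up most of it, at 16746 to 19322 CPM in spleens and 11077 to 14273 CPM in tumours. Genes of the list did not all go one way. Nkg7 was lower in tumours (2362 to 3171 against 3824 to 4868 CPM), and Gzmb was higher (1747 to 2149 against 357 to 1236 CPM). The 6 members together took 1.27% to 1.501% of counts in healthy spleen NK, 1.43% to 1.55% in tumour-bearing spleen NK and 1.95% to 2.15% in tumour NK libraries. H2-D1 ranked 5th of 10210 genes by mean CPM in each NK group and B2m between 6th and 10th. These are ranks of transcript-end counts, which are not scaled by length.

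In mice with a tumour, NK cells of the tumour were set against NK cells of the spleen. Both heavy chains, the light chain, Tap1 and Tapbp were 1.43-fold to 1.67-fold higher in the tumour, and Tap2 was not called. Thus 5 of 6 members rose in edgeR's quasi-likelihood test (threshold 0.05 on the Benjamini-Hochberg adjusted p over all 8471 genes), where 15.8% of genes were called higher, and 0 of 6 fell, where 13.2% were called lower. The libraries of 4 members, H2-D1, H2-K1, B2m and Tap1, did not overlap, a separation seen as a rise in 16.5% of all genes. The median log2 fold change of the members was 0.60, against 0.00 over all genes.

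H2-D1, a classical heavy chain, stood at 6125, 6655, 7068 and 7029 CPM in tumour-bearing spleen replicates 1 to 4 and at 9195, 9955, 8959 and 10385 CPM in tumour replicates 1 to 4. All 4 tumour libraries lay above all 4 spleen libraries. On the log2 scale H2-D1 rose by 0.52 (SE 0.142, edgeR adjusted p = 0.00985). H2-K1, the other classical heavy chain, was at 1471, 1707, 2059 and 2171 CPM in the spleens and at 3375, 2482, 2213 and 3295 CPM in the tumours. Its groups did not overlap, but tumour replicate 3 was close to spleen replicate 4. H2-K1 rose by 0.62 on the log2 scale (SE 0.182, edgeR adjusted p = 0.0149). The call was lost without tumour-bearing spleen replicate 1 (adjusted p = 0.0577), tumour replicate 1 (adjusted p = 0.0601) or tumour replicate 4 (adjusted p = 0.0579) in edgeR. It was also lost against side B alone, where the log2 fold change was 0.39 (adjusted p = 0.0571 in edgeR) against 0.83 for side A.

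B2m, the light chain that every class I heavy chain needs, was at 6525, 5627, 4775 and 4674 CPM in the tumour-bearing spleens and 9244, 8789, 9350 and 8689 CPM in the tumours. Tumour libraries were all above spleen libraries, and they spread least, with an SD of 328 CPM against 863 in the spleens. Its log2 fold change of 0.74 (SE 0.158, adjusted p = 0.00148 in edgeR) was the highest of the 6 members in this comparison and exceeded that of 87.1% of all genes tested. B2m was called under every alternative tried, with log2 fold changes of 0.57 to 0.89.

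Tap1, a subunit of the peptide transporter, was at 170.7, 183.6, 177.1 and 209.02 CPM in the tumour-bearing spleens and at 314, 300, 250.1 and 295.7 CPM in the tumours. No spleen library reached the lowest tumour library, and Tap1 rose by 0.65 on the log2 scale (SE 0.122, edgeR adjusted p = 0.000496). Tap2, the partner subunit, was at 177.6, 155.2, 178.1 and 226.4 CPM in the spleens and 222.2, 197.1, 155.1 and 216.8 CPM in the tumours. The Tap2 groups overlapped over nearly their whole range. Its log2 fold change of 0.10 (95% interval −0.23 to 0.43, adjusted p = 0.671 in edgeR) leaves room for a change in either direction, and it was slightly negative under upper-quartile scaling, without scaling factors and against side B.

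Tapbp encodes tapasin, the chaperone that edits peptide loading. It was at 272.1, 271.8, 352.6 and 472.3 CPM in the spleens and at 491.04, 427.5, 580.2 and 555.3 CPM in the tumours. Spleen replicate 4 lay above tumour replicate 2, so Tapbp was the member called with overlapping libraries. Tapbp rose by 0.59 on the log2 scale (SE 0.172, edgeR adjusted p = 0.0142). The spleen values followed the split, and the log2 fold change was 0.92 against side A and 0.28 (adjusted p = 0.137 in edgeR) against side B. Without tumour-bearing spleen replicate 1, spleen replicate 2 or tumour replicate 3 the adjusted p in edgeR was 0.0569, 0.0506 or 0.053. Without tumour-bearing spleen replicate 1, and against side B alone, the members called higher dropped from 5 to 3, namely H2-D1, B2m and Tap1.

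**Figure D1:**
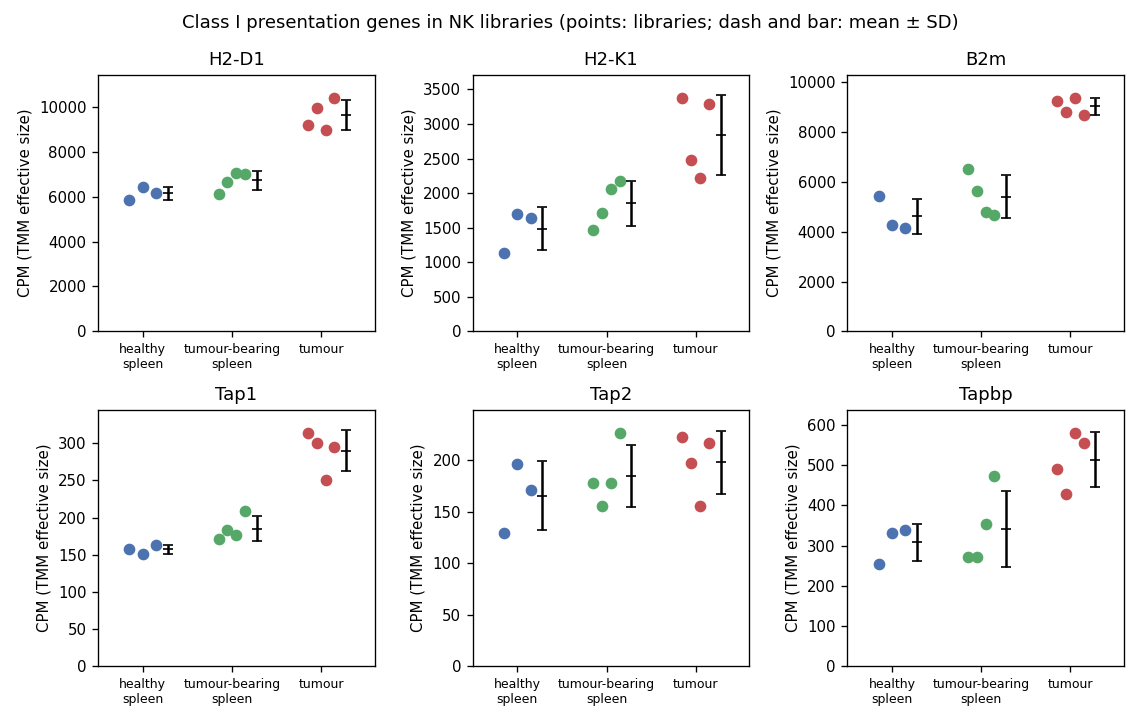
Levels of the 6 genes in each NK library, in CPM on TMM-scaled library sizes (linear axis from 0), with replicates in numerical order from left to right within a group and the group mean ± SD beside them. H2-D1, H2-K1, B2m and Tap1 show tumour libraries above every spleen library, Tapbp overlaps with 1 library of the tumour-bearing spleens, and Tap2 overlaps throughout.

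Against healthy spleens the same genes were higher in tumour NK, and this comparison shares its tumour libraries with the one above. Here too 5 of 6 members rose, against 16.5% of all genes tested, and 0 fell, against 14.0%. All 5 had groups that did not overlap, a separation seen as a rise in 18.5% of all genes. H2-D1 was at 5840, 6410 and 6172 CPM in healthy replicates 1 to 3, all under the lowest tumour library, with a log2 fold change of 0.65 (SE 0.156, adjusted p = 0.00364 in edgeR). H2-K1 was at 1134, 1693 and 1637 CPM in the healthy spleens, with a log2 fold change of 0.93 (SE 0.2, adjusted p = 0.00149 in edgeR). B2m was at 5430, 4262 and 4162 CPM and differed by 0.97 on the log2 scale (SE 0.174, adjusted p = 0.000286 in edgeR), a 1.95-fold rise.

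For Tap1 the healthy libraries were close together, at 157.2, 150.9 and 163.4 CPM, and Tap1 rose by 0.88 on the log2 scale (SE 0.137, edgeR adjusted p = 5.81e-05). Tapbp was at 254.3, 331.7 and 337.6 CPM and rose by 0.73 on the log2 scale (SE 0.189, adjusted p = 0.00601 in edgeR). Tap2 was at 129.4, 195.8 and 170.8 CPM, overlapped with the tumour libraries and had a value of 0.24 (95% interval −0.12 to 0.60, edgeR adjusted p = 0.322), short of a call. All 5 calls held in each of the 20 alternatives tried for this comparison, left-out libraries and either side of the spleen split included.

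Between the spleens the question is whether a tumour elsewhere in the body goes with a change in splenic NK cells. None of the 6 members was called in either direction in edgeR, where 1.23% of all genes were called higher and 0.354% lower. The count was also 0 in DESeq2, and 0 at an unadjusted p under 0.05 in edgeR, a level passed by 951 of all 8471 genes. The fitted values were all above 0, from 0.13 for H2-D1 to 0.31 for H2-K1 on the log2 scale. The interval of H2-K1 ran from −0.10 to 0.73 and that of Tap1 from −0.05 to 0.52, so rises of these sizes could not be told from none. Tap1 libraries did not overlap between these groups, a separation found as a rise in 6.52% of all genes. In a fit of the spleen libraries with the side of the split as a block, added after the data were seen, H2-K1 was called, at 0.40 on the log2 scale. All genes called went from 134 to 691 in that fit. The block was drawn from the main axis of the same counts, so its calls are no independent test.

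**Figure D2:**
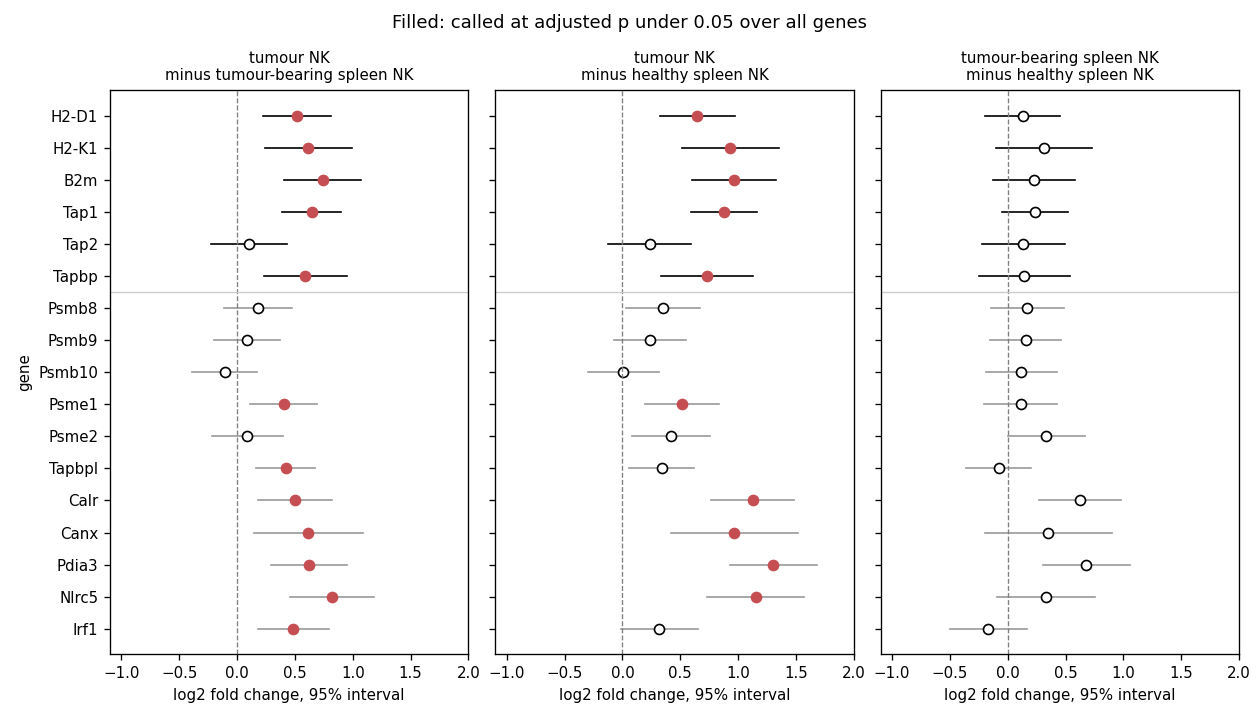
Log2 fold changes of the 6 members (upper rows) and of 11 other genes of the pathway in the 3 NK comparisons, as points with 95% intervals from edgeR, filled where the adjusted p over all genes was under 0.05. In both tumour comparisons every member except Tap2 is filled, and in the comparison of the spleens no point is.

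Set against all genes, the members lay on the upper slope of the distribution and not at its edge. In tumour against tumour-bearing spleen NK, B2m exceeded 87.1% of genes, Tap1 84.5%, H2-K1 83.9%, Tapbp 83.0%, H2-D1 80.5% and Tap2 57.5%. Between the spleens, where no member was called, they exceeded 67.5% (H2-D1) to 84.3% (H2-K1) of genes. Scaling shifted the whole distribution. The median of all genes was −0.10 under upper-quartile factors and −0.12 on raw totals, and higher genes were 54.5% of calls under TMM, 41.6% under upper-quartile factors and 37.7% on raw totals. Against healthy spleens the raw totals gave a median of −0.18 and 32.8% higher genes among calls, where TMM gave 0.02 and 54.2%. All 6 members stayed above the median of all genes under these scalings, and 5 of 6 stayed called.

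**Figure D3:**
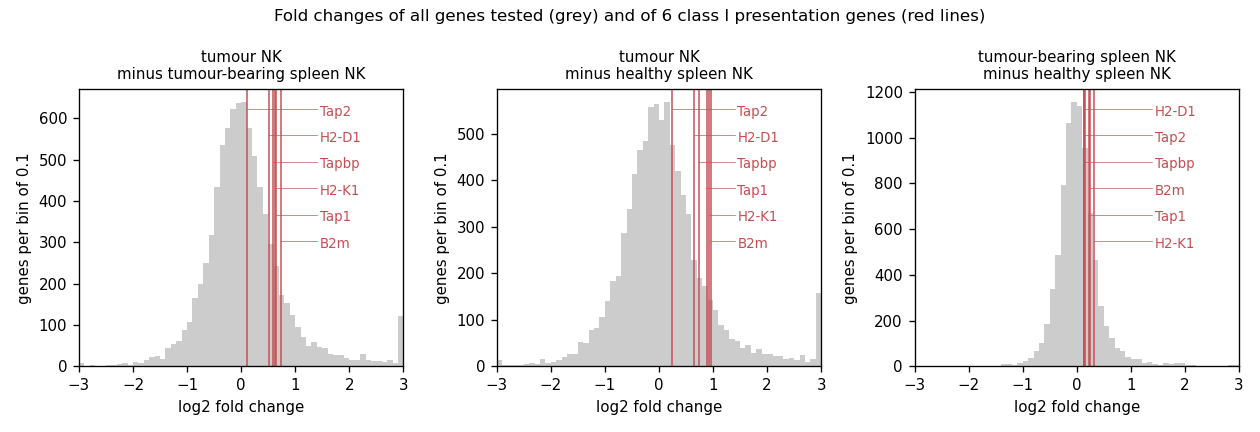
Number of genes per bin of 0.1 in log2 fold change over the 8471 genes tested in each NK comparison (grey, with values beyond ±3 gathered in the end bins), and the value of each member (red lines). In both tumour comparisons the members other than Tap2 sit to the right of the peak, with B2m furthest, and in the comparison of the spleens, where the distribution is narrower, all 6 sit between 0.13 and 0.31, right of its centre.

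Ratios of counts within a library do not depend on scaling, and 9 such tests were made. Tap1 to Tap2 was the ratio that separated the groups. It was between 0.923 and 1.18 in tumour-bearing spleens, between 0.77 and 1.21 in healthy spleens and between 1.36 and 1.61 in tumours. Every tumour library therefore had more Tap1 than Tap2 counts by a wider margin than any spleen library. The ratio was 1.46-fold higher in tumour than in tumour-bearing spleen NK (exact two-sided permutation p = 0.0286, the smallest that 4 against 4 can give, adjusted p = 0.129). Against healthy spleens it was 1.53-fold higher (exact permutation p = 0.0286, the smallest that 4 against 3 can give, adjusted p = 0.129). Neither passed the threshold after adjustment. H2-K1 to H2-D1 averaged 0.241 ± 0.0407 (SD, n = 3) in healthy spleens, 0.274 ± 0.0314 (SD, n = 4) in tumour-bearing spleens and 0.295 ± 0.058 (SD, n = 4) in tumours, with overlapping libraries. B2m to the sum of both heavy chains averaged 0.613, 0.641 and 0.729 in the same order, also with overlap. In the spleens that last ratio followed the split, at 0.673 to 0.859 on side A and 0.508 to 0.533 on side B. The lowest exact permutation p of the tests on these other ratios was 0.229.

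**Figure D4:**
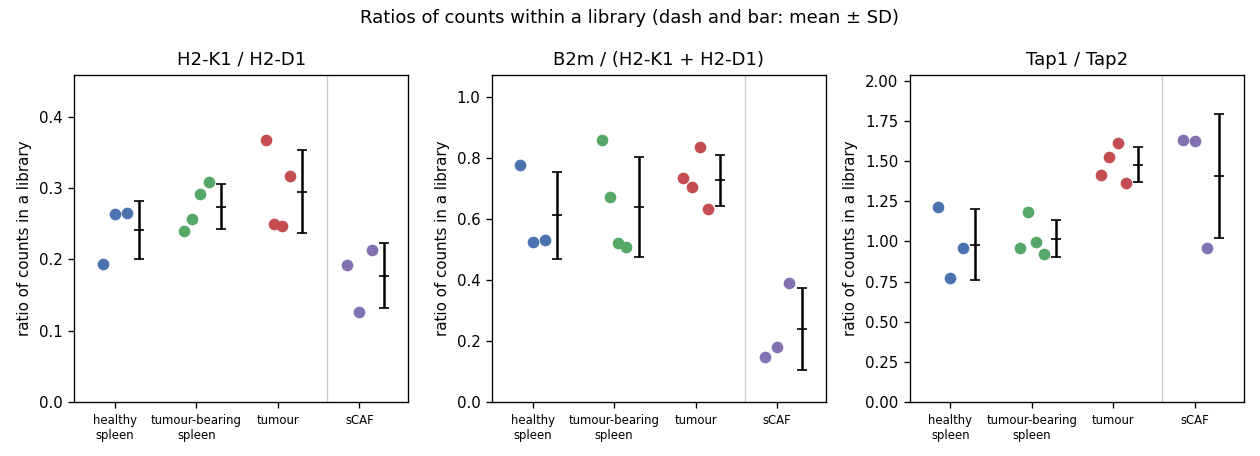
Ratios of raw counts within each library for H2-K1 to H2-D1, B2m to the sum of H2-K1 and H2-D1, and Tap1 to Tap2, with group means ± SD, and with the sCAF libraries right of the grey line because they come from a separate table. The Tap1 to Tap2 ratio is 1.36 or more in every tumour NK library and at most 1.21 in every spleen library.

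The wider pathway was read from lists of further genes. Among class Ib and class I-like heavy chains 4 of 10 tested rose in tumour against tumour-bearing spleen NK and 0 fell, with a list median of 0.29. Over all genes 15.8% were called higher and 13.2% lower in this comparison, and 16.5% and 14.0% against healthy spleens, and each list below is to be read against these shares. H2-K2, annotated as a transcribed pseudogene beside H2-K1, showed the largest rise of the list. It was at 23.7 to 38.3 CPM in the spleens and 191.2 to 277.1 CPM in the tumours, without overlap (log2 fold change 3.13, SE 0.179, adjusted p = 1.39e-10 in edgeR). None of the 50-base windows in the last 500 bases of H2-K2 occurs in another gene of the reference, and that stretch is 85.0% identical to H2-K1 where the pair aligns. H2-Q4 rose by 1.19 and H2-Q6 by 0.96 on the log2 scale, but 35.9% of such windows in H2-Q6 are shared, 61 of them with H2-Q4, so these counts are uncertain. H2-L, a heavy chain gene of the d haplotype, stood at 19.7 ± 6.64 CPM (SD, n = 4) in the spleens and 18.5 ± 4.91 CPM (SD, n = 4) in the tumours and was not called. The alignments of transcript ends did not include H2-L. Whether its reads were counted under H2-D1 was not tested, so this level may not be that of the gene. H2-T23, which encodes the Qa-1 molecule read by NKG2A, was at 410.4 and 492.1 CPM on average and was not called (adjusted p = 0.353 in edgeR), except against side A (0.58 on the log2 scale, edgeR adjusted p = 0.00493). Against healthy spleens 5 of 10 rose and 0 fell, with H2-K2 at 3.19, H2-Q10 at 1.63 and H2-Q6 at 1.15 on the log2 scale. H2-Q10 libraries overlapped, at 2.68 to 4.13 CPM in healthy spleens and 3.28 to 18.6 CPM in tumours. In healthy libraries 3 counts equal 1.69 to 5.36 CPM on raw totals, so its level there was near the floor. The H2-Q10 call was lost without healthy replicate 2 or 3 or without tumour replicate 2 or 3 (log2 fold changes 0.92 to 1.83), and in DESeq2, on raw totals and on side A, in 7 of 19 alternatives in all.

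Of the 9 genes that supply peptides, 2 rose and 0 fell in tumour against tumour-bearing spleen NK, with a median of 0.13, so this count is near that of all genes (15.8% higher). The 3 immunoproteasome subunits were not called. Psmb8 had a log2 fold change of 0.18 (adjusted p = 0.351), Psmb9 of 0.08 (adjusted p = 0.681) and Psmb10 of −0.11 (adjusted p = 0.589), all in edgeR. Psmb9 starts next to Tap1 and runs the other way, so the windows of both overlap on opposite strands, yet Tap1 was called and Psmb9 was not. The difference between those genes was not tested. Tpp2, a cytosolic peptidase, rose by 0.64 and Psme1, a proteasome activator subunit, by 0.40 on the log2 scale. Both calls were fragile. Tpp2 lost its call without tumour-bearing spleen replicate 3 or 4 or tumour replicate 2, and Psme1 without spleen replicate 2, 3 or 4, healthy replicate 2 or tumour replicate 1 or 3 (0.32 to 0.42). Without any scaling factor 0 of the 9 were called. Against healthy spleens Psme1 alone was called, at 0.52, and not without healthy replicate 2 or on raw totals.

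Of the chaperones of loading and folding, 5 of 7 were called higher and 0 lower (all genes 15.8% and 13.2%), with a median of 0.50. Hspa5, the general chaperone of the endoplasmic reticulum, went from 355.2 ± 101 to 900 ± 158 CPM (SD, n = 4 each), a log2 fold change of 1.34 (adjusted p = 0.000762 in edgeR). Pdia3, the thiol oxidoreductase of the loading complex, rose by 0.62 (adjusted p = 0.00513 in edgeR). Calr was called at 0.50 and Canx at 0.62. Calr lost its call without spleen replicate 1 or 2 or tumour replicate 1 or 4 (0.43 to 0.46), and Canx in 12 of 20 alternatives. Against healthy spleens 4 of 7 rose, led by Hspa5 at 2.04, Pdia3 at 1.30 and Calr at 1.13 on the log2 scale. Between the spleens none of the 7 was called, with Calr at 0.63 (adjusted p = 0.0716) and Pdia3 at 0.68 (adjusted p = 0.0633) in edgeR. DESeq2 called both (adjusted p = 0.012 and 0.0434). In edgeR Pdia3 was also called without tumour-bearing spleen replicate 3 (adjusted p = 0.0299) or healthy replicate 1 (adjusted p = 0.0153), and Hspa5 without healthy replicate 1 (adjusted p = 0.0298). With the side of the split as a block 4 of the 7 were called higher, where 443 of all genes were.

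Regulators known to act on class I promoters were called higher in 9 of 14 cases and lower in 1 (all genes 15.8% and 13.2%), with a median of 0.44. Rel, an NF-kappaB subunit, went from 17.1 ± 5.94 to 97.5 ± 23.2 CPM (SD, n = 4 each; log2 fold change 2.51, adjusted p = 6.31e-08 in edgeR). Irf8, a regulatory factor of the interferon family, rose by 1.20 on the log2 scale. Nlrc5, the class I transactivator, is named here after its values were seen. It was at 66.3, 60.8, 53.0 and 51.4 CPM in the spleens and 90.2, 139.1, 97.4 and 86.5 CPM in the tumours, without overlap (log2 fold change 0.82, adjusted p = 0.00144 in edgeR). Irf2 fell by 0.49, and lost the call without spleen replicate 3 or tumour replicate 3 or 4. Under upper-quartile scaling and on raw totals 6 of the 14 regulators were called higher. Against healthy spleens 8 rose, with Rel at 2.65 and Irf8 at 2.15, and Irf2 fell by 0.49. This Irf2 call was lost without healthy replicate 2 or 3 or tumour replicate 2, 3 or 4 (edgeR adjusted p 0.0617 to 0.29). Against healthy replicate 1 alone (side A), 4 rose, Nlrc5 had an adjusted p of 0.0893, and Irf2 had a log2 fold change of 0.09 in place of −0.49 in edgeR. Between the spleens Irf8 was called at 0.95 (adjusted p = 0.0025 in edgeR), with 462.2 ± 46 CPM in healthy (SD, n = 3) and 890.4 ± 76.4 CPM in tumour-bearing spleens (SD, n = 4), and no other list gene was. That call was lost on side A (log2 fold change 0.79, edgeR adjusted p = 0.169).

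Of 6 interferon receptor and kinase genes 2 were called higher and 1 lower, counts near those of all genes (15.8% and 13.2%). Ifngr1, a chain of the interferon-gamma receptor, rose from 288.3 ± 32.6 to 722.4 ± 123 CPM (SD, n = 4 each; log2 fold change 1.33, adjusted p = 1.88e-06 in edgeR) and Jak2 by 1.00 on the log2 scale. Tyk2, a kinase of type I interferon receptors, fell by 0.94 (adjusted p = 4e-05 in edgeR). Against healthy spleens the same 3 genes were called, at 1.89 for Ifngr1, 0.95 for Jak2 and −1.09 for Tyk2. Of the 7 genes tested for NK receptors that bind class I, 0 were called in either tumour comparison in edgeR. Klrd1, a partner chain of NKG2A, was at 1141 ± 377 CPM in tumour-bearing spleens and 1116 ± 196 CPM in tumours (SD, n = 4 each). These counts followed the split of the spleens. Against tumour-bearing spleens of side B 4 of 7 receptor genes were called higher and 0 lower, and against those of side A 0 of 8 higher and 3 lower. Against healthy libraries of side B 3 of 7 were called higher and 1 lower, and without healthy replicate 1 it was 1 higher and 0 lower. Klrd1 itself ran from 705.9 to 1498 CPM in tumour-bearing spleens, from 1154 to 2421 CPM in healthy spleens and from 867.1 to 1291 CPM in tumours. Against healthy replicate 1 alone (side A) its log2 fold change in tumours was −1.14. Between the spleens, with the side as a block, Klrd1 was called lower in tumour-bearing mice, at −0.62 on the log2 scale.

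Markers of some other cells were also higher in the tumour NK libraries, by their summed levels. Summed over 7 macrophage and monocyte genes of the table, tumour libraries had 36.5 to 216.5 CPM on raw totals and spleen libraries 10.7 to 27.96. Tumour replicate 3 held the highest value, and without it 4 of the 5 called members stayed called, while Tapbp had a log2 fold change of 0.51 (edgeR adjusted p = 0.053). Neutrophil genes (3 in the table) summed to 55.5 to 153 CPM in tumours and 0.563 to 11.9 in spleens, carcinoma or epithelial genes (2) to 25.0 to 51.0 and 0 to 3.57, and class II presentation genes (4) to 303.2 to 412.2 and 51.8 to 145.3. The carcinoma or epithelial sum in tumours was mostly Cdh1, at 23.9 to 44.9 CPM, with Epcam at 1.09 to 6.85 CPM. T cell genes (4) overlapped, at 81.0 to 127 CPM in tumours and 69.7 to 162.6 CPM in spleens. Pecam1, which encodes the gated-out CD31, was at 130.5 to 184.7 CPM in tumours and 48.2 to 93.0 CPM in spleens. The neutrophil gene Retnlg was at 0 in all spleen libraries and at 2.61 to 8.42 CPM in tumours. Csf1r, a macrophage gene, was at 0 in all spleen libraries and at 0 to 6.53 CPM in tumours (median 0.70). Cd68 overlapped, at 14.8 to 23.9 CPM in tumours and 5.36 to 20.2 CPM in spleens, as did Apoe, Lyz2, C1qb and C1qc. C1qa did not overlap, at 0.871 CPM or more in tumours and at most 0.777 CPM in spleens. The part of these cells in the results was not tested, and in bulk samples a larger share of cells that express a gene and more RNA per cell cannot be told apart.

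The genes most like each member over the 11 NK libraries were found among 3500 genes with a mean of at least 50 CPM. These correlations rest largely on the step from spleen to tumour that the libraries share and carry no test. B2m was most like Gpr171 (Pearson r = 0.994), Stk17b (0.993) and Litaf (0.988). H2-D1 was most like Isy1 (0.983), Mapkapk3 (0.979) and Cd82 (0.978), and genes most like H2-K1 included Ybx3 (0.972) and Hnrnpa1 (0.958). Tap1 was most like Tob2 (0.978), Jund (0.976) and Itgb3 (0.976), and genes most like Tapbp included Ftl1 (0.948) and Prdx2 (0.946). Tap2 had the weakest closest neighbours, Man2a1 (0.907), Psmb2 (0.895) and Ppib (0.875). Among the members themselves r was highest between H2-D1 and Tap1 (0.958) and lowest between B2m and Tap2 (0.182).

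In the sCAF libraries the heavy chain H2-D1 had the highest mean of the whole table. It was at 10586, 11007 and 7823 CPM on raw totals in replicates 1 to 3, rank 1 of 12235 genes by mean. In replicate 3 it lay below the mesenchymal gene Vim, which was at 9033 to 9502 CPM over the 3 libraries. H2-K1 was at 2039, 1390 and 1667 CPM. B2m was at 1861, 2238 and 3724 CPM, so that replicate 3 was the highest for B2m and the lowest for H2-D1. Tap1 was at 541.1, 449.9 and 226 CPM, Tap2 at 332.2, 276.9 and 235.8 CPM and Tapbp at 1087, 761.7 and 726.1 CPM, with replicate 3 lowest for each. The ratio of B2m to both heavy chains was between 0.147 and 0.392 in the sCAF libraries and between 0.508 and 0.859 over all NK libraries. The tables were counted separately, so these values stand side by side with no test. All 6 members together took 1.44% to 1.64% of sCAF counts. The interval of each library's share, from exact Clopper-Pearson limits at 95%, was within 1.42% to 1.66%, which covers counting error only.

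Replicate 3 was also lowest for the immunoproteasome, Nlrc5 and class II genes of the sCAFs, but not for every gene of the pathway, since Canx, Pdia3 and Npepps were lowest in replicate 2 and Tpp2, Lap3 and Bcap31 in replicate 1. Psmb8 was at 1766, 1336 and 970.8 CPM, Psmb9 at 551.9, 290.6 and 214 CPM and Nlrc5 at 166.8, 184.4 and 104.4 CPM. Class II genes varied more, with a summed level of 1963 to 8926 CPM and H2-Aa between 759.8 and 3233 CPM, while Ciita stood at 1.502 to 9.42 CPM. Ptprc, which encodes the leukocyte antigen CD45, was at 0 to 1.79 CPM, and none of 10 NK markers was listed in this table. Macrophage and monocyte genes (8 in the table) were present in the sCAF libraries and summed to 150.2 to 201.2 CPM. Among them Apoe was at 82.0 to 113.4 CPM, Lyz2 at 13.7 to 19.5 CPM and Csf1r at 4.55 to 8.26 CPM. Neutrophil genes (6) summed to 1.35 to 6.83 CPM and T cell genes (2) to 1.79 to 6.01 CPM. The label was set against its markers. Fibroblast genes (8 in the table) summed to 454.6 to 1210 CPM, with Col1a2 at 178.4 to 414.5 CPM and Pdgfra at 40.2 to 84.8 CPM. Carcinoma or epithelial genes (7) summed to 3039 to 3892 CPM, mostly Krt18 (2250 to 2993 CPM) and Krt8 (690.8 to 826.3 CPM), with Epcam at 5.83 to 27.3 CPM and Krt5 at 0. Among mesenchymal genes outside that fibroblast list, Vim was at 9033 to 9502 CPM and S100a4 at 1388 to 2646 CPM. Thy1 was far lower, at 39.9 to 103.6 CPM, and Acta2 lower still, at 3.00 to 3.79 CPM. The summed carcinoma or epithelial genes thus exceeded the summed fibroblast genes of these lists in every sCAF library, whereas Vim alone exceeded both. What share of the class I counts came from which cell was not tested.

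**Figure D5:**
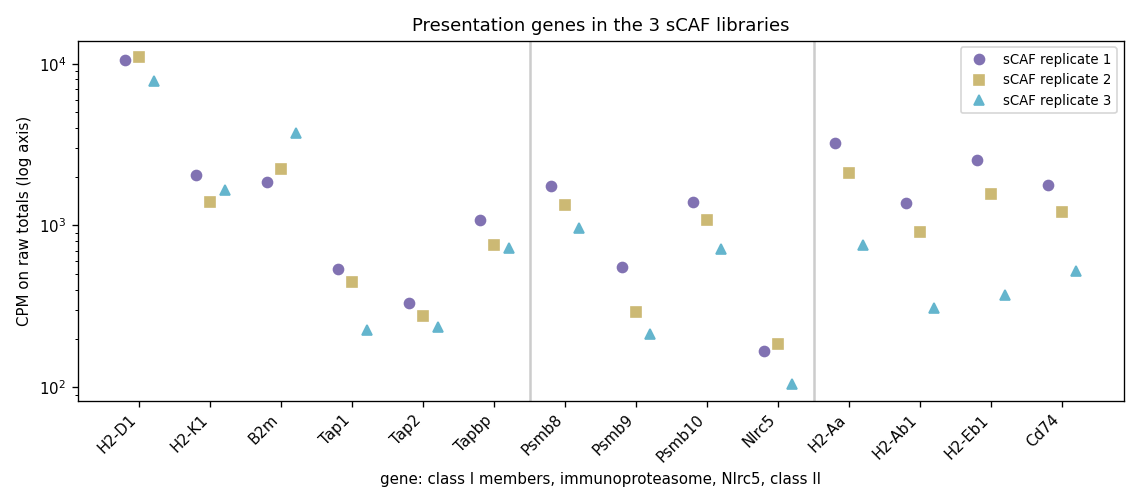
Levels of the 6 members, the immunoproteasome subunits, Nlrc5 and class II genes in the 3 sCAF libraries, in CPM on raw totals (log axis, no error bars, 1 symbol per library). Among the genes shown, H2-D1 is highest in all 3 libraries. Replicate 3 is lowest for H2-D1, Tap1, Tap2 and Tapbp and for all 4 class II genes, and B2m is highest in replicate 3.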

How the data were processed

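The authors deposited raw counts per gene symbol, 1 table for 11 NK libraries and 1 for 3 sCAF libraries. Per the submitters' processing notes they used bcl2fastq, STAR 2.4.2a, HTSeq and mm10, and the annotation, strand setting and use of molecular identifiers are not given in the sources used here. Every gene of the NK table reached 6 counts in some library, so totals cover listed genes only, and a count of 0 allows 1.53 to 5.36 CPM in NK and 1.35 to 2.28 CPM in sCAF libraries (3 counts, counting error only). Header lines hold a run of spaces in place of a tab, so columns were mapped by position.

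Counts were tested with edgeR 4.0.16 (R 4.3.3), with filterByExpr, TMM and 1 robust quasi-likelihood fit of the 3 NK groups, and genes counted as called under 0.05 after Benjamini-Hochberg adjustment over 8471 genes. The code was tested on simulated data. Library ratios were compared by exact permutation tests. DESeq2 1.42.0, other scalings, left-out libraries and a replicate block were alternatives, and the fits by side of the spleen split were chosen after seeing the data. The sides themselves were drawn from the counts tested. Same-numbered libraries did not deviate together in every pair, so numbers were not taken as pairs. Replicates differed by more than sampling noise.

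Named genes were the 6 members, per list up to 3 called genes in each direction and comparison, list genes not called given by their values, and the 3 genes most correlated with each member on log2(CPM + 1). The members and lists were chosen with earlier results of these data known. A few genes that this rule names are not reported here.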

Additional observations from a re-analysis of the deposited data

How the results depend on the processing

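Over all alternatives and comparisons, members kept their side of the threshold in 357 of 366 fits. A call was lost in 8 (H2-K1 and Tapbp in tumour against tumour-bearing spleen NK) and gained in 1 (H2-K1 between the spleens). Direction was not kept in every fit. Tap2 went as low as −0.07 in tumour against tumour-bearing spleen NK, and Tapbp as low as −0.05 between the spleens, without a call. Members called higher in tumour against tumour-bearing spleen NK numbered 3 to 5 with a library left out, 3 without tumour-bearing spleen replicate 1, and 3 against spleen libraries of side B only. Between the spleens members called higher went from 0 to 1 with the side as a block. All genes called between the spleens numbered 42 to 142 with a library left out (134 with all), 42 without healthy replicate 2, 67 without healthy replicate 3, 691 with the side as a block and 38 on side A only. For tumour against healthy spleen NK, 1471 genes were called on side A only, where healthy replicate 1 was the lone sample and assumed to vary like the other groups, against 2582 with all. Irf2 reversed there, from −0.49 to 0.09313. The cause was not tested. That fit held fewer samples, and healthy replicate 1 had the lowest total of the NK libraries (559688 counts). The replicate number as a block gave 2626, 2648 and 115 calls in the 3 comparisons, and 5, 5 and 0 members called higher, and it changed no member's call. Among other pathway genes named here, it called Pdia3 and Hspa5 between the spleens (edgeR adjusted p = 0.0272 and 0.0445), and against healthy spleens it called Tpp2 (0.0159) and lost Irf2 (0.0775). For tumour and tumour-bearing spleen libraries, correlations of deviations ran from −0.05 to 0.29 for the same number and from −0.25 to 0.16 for different numbers. The pairs numbered 2 (0.29) and 4 (0.21) were above every pair of different numbers. These values cannot tell whether libraries of the same number came from the same mouse. Depth limits genes near 3 counts and none of the members, and 3 or 4 libraries per group limit the rest.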
